A study of Mus musculus with 4 samples.

Results

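The 10 satellite-like transcripts described here are Gm10800, Gm10801, Gm21738, Gm10719, Gm10715, Gm10717, Gm26870, Gm10722, Gm11168 and Gm10718, out of 26041 gene symbols in the count tables. They were chosen by measured values, since they were selected on the share of the UMIs of a cell by library, by genotype on plate 4 and by cell depth. Those values therefore describe the selection and carry no test. The symbols starting with Gm are predicted gene models with no assigned function. Single cells were sorted for tdTOMATO fluorescence from testes of 4 wk old mice, and transcripts were counted from their 3′ ends by unique molecular identifiers (UMIs), which tell molecules of a gene apart. The Plzf +/+ cells came from plates 1, 2 and 4 and the Plzf lu/lu cells from plates 3 and 4, which gave 3 Plzf +/+ and 2 Plzf lu/lu libraries. Below, values of the +/+ libraries are in the order of plates 1, 2 and 4 and those of the lu/lu libraries in the order of plates 3 and 4. Plzf lu/lu mice are homozygous for the luxoid mutation of Plzf, the transcription factor gene listed in the tables as Zbtb16. Mice of both genotypes carried the Eomes knock-in allele that drives an inducible Cre and tdTomato, and all 4 samples are labelled with a B6N.Cg strain and the allele Eomes<tm1.1(icre/ERT2)Reb>. tdTOMATO therefore reports transcription from the Eomes locus and not EOMES protein. The labels name no animals, so the spread between libraries may be that between plates and not that between mice.

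The major satellite of the mouse is a tandem repeat, rich in A and T, that fills the heterochromatin beside the centromeres. Its chromatin carries H3K9 methylation written by SUV39H1 and SUV39H2, is bound by HP1 proteins and holds methylated DNA, and its transcripts are low in most tissues. Gene models that lie in satellite sequence hold nearly the same sequence many times, and a short read can match several of them.

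Sequence was at hand for 8 of the 10 genes, as 1 coding transcript each in GENCODE M1 on the mouse build NCBIM37. The count tables were made on GRCm38, so the coordinates below do not carry over to them. Gm21738 and Gm26870 had no entry, and their repeat nature was not checked here. Gm10801 (chr2:98502394-98504240, plus strand) and Gm10800 (chr2:98506704-98507458, minus strand) lie within 5065 bases of each other. The other 6 genes lie on the plus strand of chromosome 9 within 37395 bases (chr9:3000922-3038316), in the order Gm10722, Gm11168, Gm10719, Gm10718, Gm10717 and Gm10715. All 8 are annotated as protein coding, with 3 to 5 exons and no UTR in these transcripts. To show what the genes have in common, the longest stretch shared by all 8 transcripts, 31 bases, is given in capitals with the bases around it, 5′ to 3′ on the coding strand.
Gm10800: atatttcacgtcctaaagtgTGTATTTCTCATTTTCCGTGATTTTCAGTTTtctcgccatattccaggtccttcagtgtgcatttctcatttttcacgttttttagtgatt
Gm10801: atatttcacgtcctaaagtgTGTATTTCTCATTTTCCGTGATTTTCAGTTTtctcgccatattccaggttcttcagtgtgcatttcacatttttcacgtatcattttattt
Gm10719: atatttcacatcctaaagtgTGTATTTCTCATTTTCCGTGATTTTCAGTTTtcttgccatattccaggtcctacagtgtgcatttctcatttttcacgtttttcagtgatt
Gm10715: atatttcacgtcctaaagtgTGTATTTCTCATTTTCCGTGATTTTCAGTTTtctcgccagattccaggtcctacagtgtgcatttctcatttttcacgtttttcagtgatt
Gm10717: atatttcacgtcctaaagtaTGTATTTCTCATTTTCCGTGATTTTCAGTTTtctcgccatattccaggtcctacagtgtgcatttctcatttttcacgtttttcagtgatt
Gm10722: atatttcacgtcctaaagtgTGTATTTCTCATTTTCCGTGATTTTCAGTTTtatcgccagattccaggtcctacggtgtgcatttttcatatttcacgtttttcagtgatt
Gm11168: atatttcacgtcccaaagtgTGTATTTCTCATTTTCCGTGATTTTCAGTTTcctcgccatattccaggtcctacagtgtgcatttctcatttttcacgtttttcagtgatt
Gm10718: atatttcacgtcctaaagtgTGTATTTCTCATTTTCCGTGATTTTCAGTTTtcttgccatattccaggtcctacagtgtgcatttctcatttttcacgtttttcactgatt
The bases around it were not identical between genes, and in Gm10718 the shared stretch occurred at 2 places. Among 22611 genes with a coding transcript, 12 held this stretch (0.0531%), namely the 8 members and Gm10106, Gm10716, Gm10721 and Gm11167. In the assembled NCBIM37 sequence it occurred 73 times on either strand, with 63 copies in chr9:3000365-3037960 and 5 in chr2:98502579-98507341. Copies in sequence that is not assembled are not counted, so this is not the copy number of the genome.

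Each transcript also resembled itself when shifted. The shift with the most matching bases was 234 in 6 of the 8 genes, 225 in Gm10800 and 348 in Gm10801. At that shift 56.3 to 67.1% of bases matched, against a median of 30.7 to 31.2% over all shifts. The first 234 bases of the Gm10800 transcript hold short related phrases, with the shared stretch again in capitals. They are too few to show the match at its own shift of 225.
Gm10800: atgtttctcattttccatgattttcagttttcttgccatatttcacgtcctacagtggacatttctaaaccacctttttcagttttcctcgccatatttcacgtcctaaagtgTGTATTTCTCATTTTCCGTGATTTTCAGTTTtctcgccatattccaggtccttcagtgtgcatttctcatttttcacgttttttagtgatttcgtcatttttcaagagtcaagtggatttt
The transcripts were 510 to 684 bases long and held 45.8 to 47.4% T, against 24.3% in all other coding transcripts, and 17.2 to 18.8% A, against 25.9%. Their longest run of A was 3 bases and their longest run of T 5 to 6 bases. Between 40.8 and 77.2% of the 25-base words of a member occurred in another member. Outside the 10 genes, 6 genes held such words, of which Gm10720, Gm17535 and Gm10721 are rows of the count tables. Counts of single members are therefore uncertain, and the sum over the 10 genes is given beside them.

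The libraries held 254514 to 2608702 UMIs from 38 to 317 cells, with a median of 5061 to 6364.5 UMIs per cell. Zbtb16 had 164, 126 and 141 UMIs in the +/+ libraries against 46 and 3 UMIs in the lu/lu libraries, or 77.0, 53.1 and 70.3 against 17.6 and 11.8 CPM (UMIs of a gene per 1000000 UMIs of its library). Dazl, a germ cell RNA-binding protein gene, was detected in 86.8 to 95.6% of the cells of a library. The plates used the same barcodes, and 358 of 376 barcodes occurred in more than 1 library. Only plate 4 held both genotypes, and on the other plates genotype and plate cannot be told apart. On plate 4, 5 Plzf +/+ cells lie in the wells that the labels give to Plzf lu/lu cells.

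The Plzf lu/lu library of plate 3 stood apart from the other 4 libraries. The 10 genes together held 0.0660, 0.210 and 0.141% of all UMIs in the +/+ libraries, and 0.639 and 0.167% in the lu/lu libraries. The lu/lu library of plate 4 thus lay between the +/+ libraries, but 1 cell of plate 2 sets the upper end of their range. Without that cell, which is described below, plate 2 held 0.144%, and plate 4 lu/lu lay above all 3 +/+ libraries. The mean was 0.139% ± 0.0722 (SD, n = 3 libraries) in Plzf +/+ and 0.403% ± 0.334 (SD, n = 2 libraries) in Plzf lu/lu, a difference of 0.264 percentage points that rests on plate 3. Plate 3 was 4.59 times the +/+ mean, and within plate 4 the lu/lu cells were 1.18 times the +/+ cells. The ratio within plate 4 counts as +/+ the 5 cells in wells labelled for Plzf lu/lu. These 5 cells held 169 UMIs of the 10 genes, 1.26% of their UMIs. The other 272 +/+ cells of plate 4 held 0.134%, so the ratio depends on the genotype given to the 5 cells. The difference was 0.0277 percentage points without plate 3, and 0.500 without the 38 lu/lu cells of plate 4. As a sum, the 10 genes would rank 9th among all genes in UMIs, 4th on plate 3 and 139th on plate 1.

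Most cells held some of these transcripts. At least 1 UMI was found in 82.0, 97.0 and 97.8% of the +/+ cells of plates 1, 2 and 4 and in 99.4 and 97.4% of the lu/lu cells of plates 3 and 4. The median was 2, 8 and 7 UMIs per +/+ cell and 19 and 9 UMIs per lu/lu cell in that order. The median share of the UMIs of a cell was 0.0429, 0.111 and 0.108% in the +/+ libraries and 0.371 and 0.147% in the lu/lu libraries. Plate 1 was lowest and plate 3 highest by each measure. Cells with over 1% of their UMIs in the 10 genes made up 1.26, 4.29 and 5.05% of the +/+ libraries, 25.2% of plate 3 lu/lu and 10.5% of plate 4 lu/lu (4 of 38 cells). The variance of UMIs per cell was 9.22, 520 and 31.0 times its mean for the 10 genes in the +/+ libraries, where the value of 520 includes that plate 2 cell, and 179 and 9.18 times in the lu/lu libraries. For Dazl it was 4.11 to 6.53 times the mean, with 6.53 in plate 4 lu/lu.

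**Figure D1:**
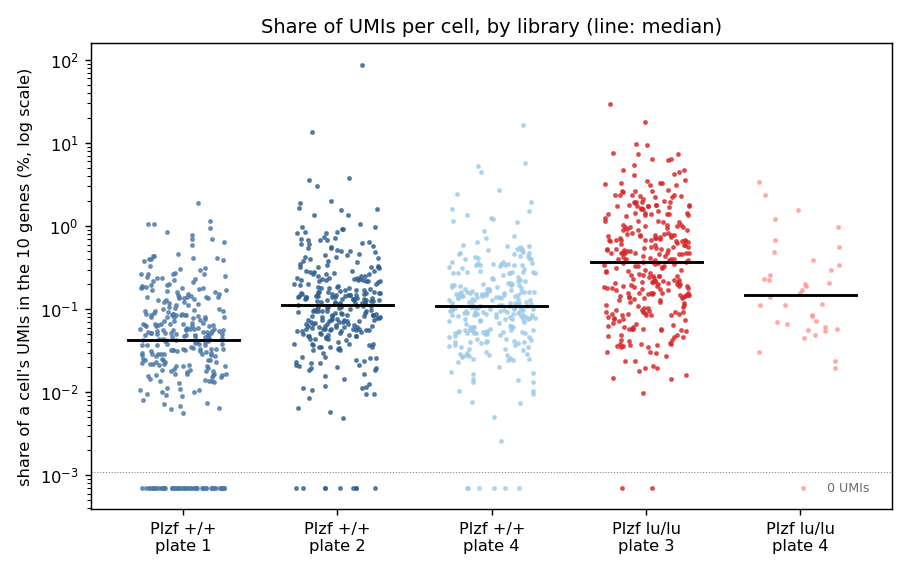
Share of the UMIs of each cell that fell in the 10 genes, in percent on a log axis, for the 5 libraries. Each point is a cell, horizontal lines are medians, and cells with 0 UMIs are drawn below the dotted line. The median was 0.371% on plate 3 and 0.0429 to 0.147% in the other libraries, and 1 plate 2 cell lies at 87.9%.

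A few cells held much of the sum. In a Plzf +/+ cell of plate 2, 1589 of 1807 UMIs (87.9%) came from the 10 genes. This cell had 174 genes detected and no UMI of Dazl, and all 10 members were present in it, with Gm10800 at 42.9% of their sum. Without it the plate 2 share was 0.144% instead of 0.210%, next to that of plate 4 +/+. The next highest shares were 29.6 and 18.1% in cells of plate 3 lu/lu, 16.7% in a plate 4 +/+ cell with 612 UMIs, 1 of the 5 in wells labelled for the other genotype, and 13.7% in a plate 2 +/+ cell. The tenth of cells with the most of these UMIs held 43.7, 61.3 and 43.0% of the sum in the +/+ libraries and 53.0 and 32.7% in the lu/lu libraries.

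All 10 genes were highest on plate 3, and 9 were lowest on plate 1. Plate 4 lu/lu lay below plate 2 +/+ in 9 genes and below plate 4 +/+ in Gm26870, so that with all cells the genotypes overlapped in every gene. In 6 of them the overlap rests on 1 cell, which is a plate 4 +/+ cell for Gm26870, described below, and the plate 2 cell with 87.9% for the other 5. Without it plate 2 +/+ had 700.2 CPM of Gm10800, 284 of Gm10801, 30.4 of Gm10719, 16.03 of Gm10715 and 16.9 of Gm10718, and both lu/lu libraries lay above all 3 +/+ libraries in these 5 genes, which were found after their values were seen. Of all 13728 genes tested, 16% had both lu/lu libraries above all +/+ libraries without that cell, and 16% with it. No cell was left out of the lu/lu libraries. Plate 4 lu/lu held 8 UMIs of Gm10719 and 5 each of Gm10715 and Gm10718, so the small gaps of these genes there lie within counting error. The levels below are in CPM without a correction for length, so they compare libraries and not genes.

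Gm10800 had 329.7, 987 and 624 CPM in the +/+ libraries and 3277 and 864 CPM in the lu/lu libraries. It held 44.1 to 51.8% of the UMIs of the 10 genes in every library and was detected in 71.9 to 99.0% of cells. Gm10801, its neighbour on chromosome 2 in NCBIM37, had 121, 417 and 235 CPM in the +/+ libraries and 1218 and 295 CPM in the lu/lu libraries. Both genes were thus lowest on plate 1, and their lu/lu cells of plate 4 lay below plate 2 +/+ only through the plate 2 cell with 87.9%. Plate 3 was 5.07 times the +/+ mean for Gm10800 and 4.73 times for Gm10801, and within plate 4 the ratios of lu/lu to +/+ were 1.39 and 1.25.

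Gm26870 had 76.1, 207 and 255 CPM in the +/+ libraries and 581 and 232 CPM in the lu/lu libraries. It showed the smallest ratio of plate 3 to the +/+ mean of the 10 genes, 3.24, and was the only one whose lu/lu cells of plate 4 were above plate 2 +/+. A single plate 4 +/+ cell held 119 of the 511 Gm26870 UMIs of its library, and without it that library had 196 CPM, so that both lu/lu libraries lay above all 3 +/+ libraries. Its part of the sum of the 10 genes was 11.5, 9.84 and 18.0% in the +/+ libraries and 9.09 and 13.9% in the lu/lu libraries. The value of 18.0% on plate 4 was 15.1% without that cell and 12.3% in the 251 cells with under 20 UMIs of the family. Gm21738 had 41.8, 154 and 91.8 CPM in the +/+ libraries and 453 and 90.4 CPM in the lu/lu libraries, so that the genotypes differed by 0.985 times within plate 4.

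The chromosome 9 genes were lower in counts. Gm10717, the highest of them, had 34.8, 133 and 81.8 CPM in the +/+ libraries and 353 and 82.5 CPM in the lu/lu libraries. Gm10722 had 17.8, 67.9 and 45.4 CPM against 157.9 and 35.4 CPM. Its ratio of lu/lu to +/+ within plate 4, 0.779, was the lowest of the 9 genes with UMIs in both libraries there. Gm10719 had 14.1, 52.3 and 29.9 CPM against 123 and 31.4 CPM. In Gm10717 and Gm10722 the +/+ and lu/lu libraries overlapped with and without the plate 2 cell. Gm10718 had 8.92, 24.4 and 18.5 CPM against 63.2 and 19.6 CPM. Gm10715 had 7.51, 25.7 and 18.0 CPM against 80.1 and 19.6 CPM. Both had 5 UMIs in the lu/lu library of plate 4, so their values there carry a wide counting error. Gm11168 had 8.45, 36.7 and 14.5 CPM in the +/+ libraries, 86.2 CPM in plate 3 lu/lu and 0 UMIs in plate 4 lu/lu, which allows up to 11.8 CPM. Over all 10 genes plate 3 was 3.24 to 5.07 times the +/+ mean (median 4.30) and 2.28 to 3.32 times the highest +/+ library. Over the 9 genes with UMIs in both libraries of plate 4 the ratio of lu/lu to +/+ was 0.779 to 1.39 (median 1.05). The +/+ libraries also differed among themselves, and plate 2 was 2.72 (Gm26870) to 4.34 (Gm11168) times plate 1. Without its cell of highest share plate 2 was 1.76 (Gm26870) to 2.64 (Gm11168) times plate 1.

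**Figure D2:**
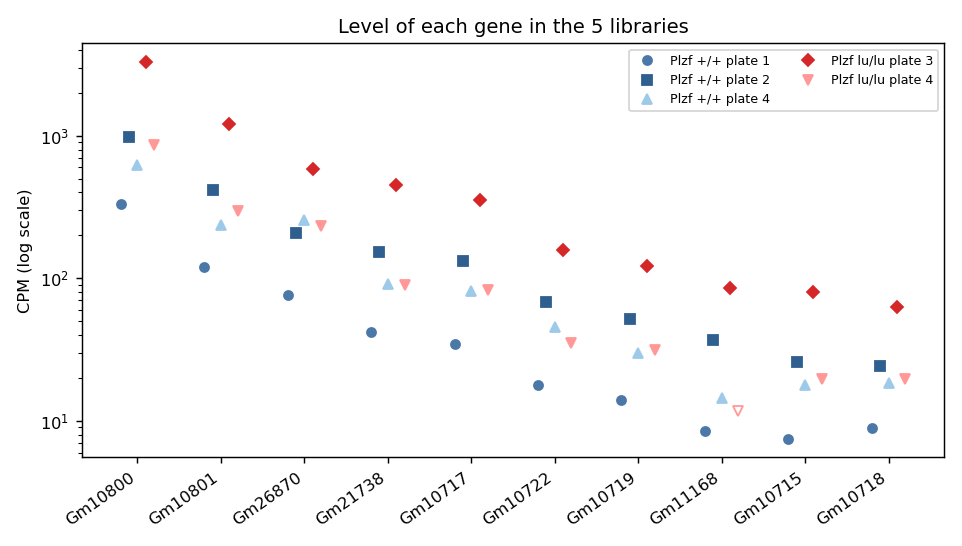
Level of each of the 10 genes in the 5 libraries, in CPM on a log axis; each point is a library and the open triangle is the limit that 0 UMIs of Gm11168 allows in plate 4 lu/lu (11.8 CPM). Plate 3 lu/lu is the highest library for all 10 genes, and the lu/lu and +/+ cells of plate 4 lie close together.

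The UMIs of the 10 genes hardly moved with cell depth, whereas their share fell with it. Cells were divided in each library into quartiles of total UMIs. In the +/+ library of plate 4 the median was 7.5, 6, 7 and 6 UMIs of the family per cell from the shallowest to the deepest quartile, while the median total went from 2189.5 to 11072 UMIs. The median share there was 0.340% in the shallowest and 0.0467% in the deepest quartile. On plate 1 the median UMIs were 3, 2, 2 and 2, and on plate 2 they were 9, 6.5, 7 and 6.5. Plate 3 differed in that its median was 20, 30.5, 18 and 12 UMIs, with the deepest quartile lowest. The 38 lu/lu cells of plate 4 had medians of 13, 8, 9 and 9 UMIs.

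For correlations, depth was taken as the UMIs of a cell outside the 10 genes. The Spearman correlation between UMIs of the family and this depth was -0.08, -0.03 and -0.10 in the +/+ libraries (n = 317, 303 and 277 cells). It was -0.19 and -0.15 in the lu/lu libraries (n = 314 and 38 cells). For Dazl the same correlation was 0.68 to 0.76. The correlation between the share of the family and this depth was -0.41 to -0.70, and the denominator of that share is the total, which contains this depth. This depth leaves out the UMIs of the members but not those of any other gene, which could set the members lower. Over the 4 libraries of more than 100 cells, the mean Spearman correlation of UMIs with depth was computed for each of 11289 genes with a UMI in at least 5% of cells. Its median was 0.27, and it was under 0 for 12 genes. These 12 were the 10 members, which the selection had picked partly for this relation, and Gm17535 and Gm10720, which it had not. Gm17535 (-0.07) and Gm10720 (-0.04) are 2 of the 6 genes that share 25-base words with the members. The members ranged from -0.13 for Gm10800 to -0.03 for Gm10718, and the lowest value of any other gene was 0.02. The 49 other genes with at least as many UMIs as Gm10800 had values of 0.51 to 0.81 (median 0.74).

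**Figure D3:**
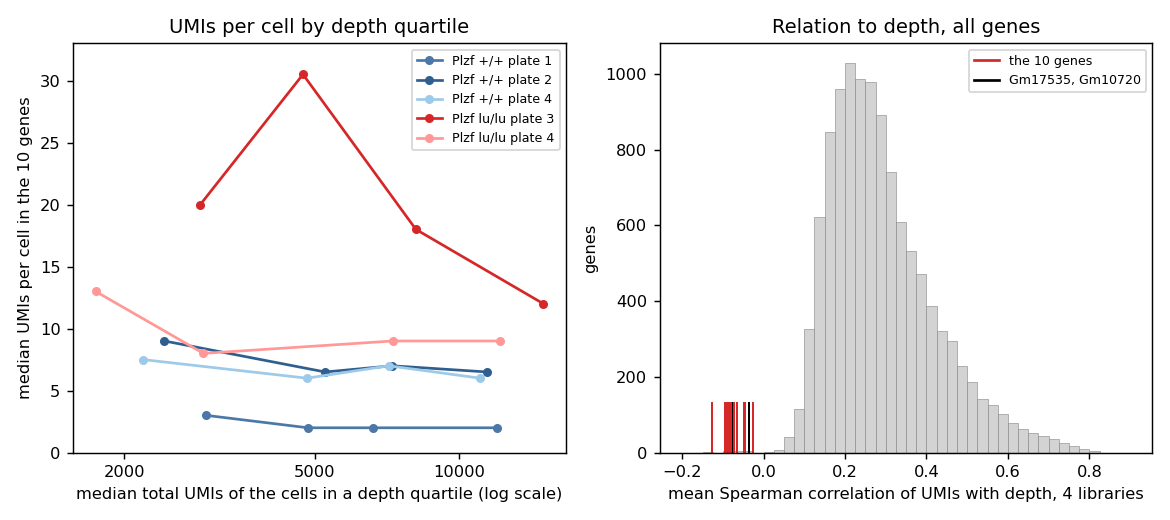
Left, median UMIs of the 10 genes per cell against median total UMIs (log axis) in the depth quartiles of each library; right, number of genes by their mean Spearman correlation between UMIs and cell depth over 4 libraries, with the 10 genes in red and Gm17535 and Gm10720 in black. The UMIs per cell stay within 2 to 13 outside plate 3, and the 12 marked genes are the only ones below 0 of 11289. Depth on the right is the UMIs of a cell outside the 10 genes.

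The genes most like the family were sought by the correlation of shares across cells, averaged over the 4 libraries of more than 100 cells. All shares of a cell have its total UMIs as denominator. The highest mean Spearman correlation among genes outside the family was 0.28 for Gm17535, followed by 0.19 for Gm10720. The next were Rps14, a ribosomal protein gene (0.17), Gm26924 (0.17), mt-Rnr2, the mitochondrial large ribosomal RNA (0.16), Rpl32 (0.15), Rps15a (0.15), mmu-mir-6236 (0.14), Rpl37a (0.12) and Rpl34 (0.12). The members themselves had 0.28 for Gm10718 to 0.94 for Gm10800, with the sum that contains them. Gm17535 had 7.04, 17.7 and 10.97 CPM in the +/+ libraries and 50.2 and 7.86 CPM in the lu/lu libraries. Gm10720 had 3.29, 15.6 and 6.48 CPM against 30.7 and 0 CPM. In both, plate 1 was the lowest of the +/+ libraries and plate 3 the highest library. Other rows counted as repeat-linked differed from this. Gm15564 had 610.0, 324 and 1185 CPM in the +/+ libraries and 493 and 416 CPM in the lu/lu libraries. Gm26917 had 246, 155 and 431 CPM against 279 and 189 CPM, and AY036118 163, 41.3 and 85.3 CPM against 103 and 102 CPM. In these 3 rows plate 3 lay within the range of the +/+ libraries.

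Cells with markers of other cell types held the transcripts as well. At least 3 of 11 Sertoli cell markers were found in 110 cells, of which 45 were on plate 3, and at least 3 of 6 T and NK cell markers in 14 cells. The median of the Sertoli-marked cells was 2, 6 and 5.5 UMIs of the family in the +/+ libraries and 15 and 10.5 UMIs in the lu/lu libraries. In the cells with neither set of markers it was 2, 8 and 7 UMIs and 20 and 8 UMIs, so that the Sertoli-marked cells were lower in 3 libraries, equal in 1 and higher in 1. At least 1 UMI of the family was found in 12 of the 14 T and NK-marked cells. Their medians were 2.5, 10 and 6 UMIs in 2, 6 and 3 +/+ cells, and 3 and 6 UMIs in 2 and 1 lu/lu cells, so that the 2 cells of plate 3 held fewer than the unmarked cells. The share of UMIs from mitochondrial genes was 5.47, 4.16 and 5.71% in the +/+ libraries and 4.54 and 4.58% in the lu/lu libraries, so that plate 3 lay within the +/+ range.

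Values were also compared by position in the plate. The ratio of the median UMIs of the family in columns 1 to 12 to that in columns 13 to 24 was above 1 in 4 of 5 libraries, with a mean of 0.37 ± 0.39 on the log2 scale (SD, n = 5 libraries; exact two-sided sign-flip permutation test, p = 0.125, where 0.0625 is the smallest that 5 libraries allow). The 5 libraries come from 4 plates, and the 2 of plate 4 share a plate, so they are not independent units for position. On plate 3 the medians were 27 and 15 UMIs for these groups of columns. Cells of columns 1 to 12 also had fewer total UMIs, with a median of 5157 against 7498 on plate 3. Rows A to H had a median of 16 and rows I to P of 27 UMIs on plate 3, 2 and 3 on plate 1, 6 and 7 on plate 4 +/+, and 8 and 7 on plate 2. In wells A1 to C14 alone, which hold the lu/lu cells of plate 4, the sum was 0.0485, 0.465 and 1.26% of UMIs in the +/+ libraries and 0.269 and 0.167% in the lu/lu libraries, so that the direction of the genotype difference turned. The plate 4 +/+ value is that of 5 cells, and plate 2 includes the cell with 87.9%. The part of position in the difference between plates was not tested.

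To ask whether the transcripts went with a state of the germ cells, cells were thinned to 2000 UMIs each and compared within libraries by genes outside the family. Thinning left out 10, 27 and 26 of the +/+ cells and 10 and 9 of the lu/lu cells. At this depth the family held 0.0769, 0.193 and 0.173% of UMIs in the +/+ libraries and 1.05 and 0.164% in the lu/lu libraries, and plate 4 lu/lu lay below plate 4 +/+. The UMIs were summed by class and library and tested with edgeR, with the library as a block. Since every cell has the same total, UMIs of the family leave fewer for all other genes, including those that define a class.

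Cells with at least 1 UMI of Gfra1, the GDNF receptor gene of undifferentiated spermatogonia, had lower shares of the family than cells with none in 4 of 5 libraries with 1 random thinning and in 2 of 5 with another. With the first, the family held 0.0739 against 0.0787% of UMIs on plate 1, 0.168 against 0.209% on plate 2 and 0.154 against 0.183% on plate 4 in Plzf +/+ cells. In Plzf lu/lu cells it held 0.655 against 1.14% on plate 3, and 0.193 against 0.155% in the 7 and 22 cells of plate 4. With the second thinning the Gfra1-positive cells were higher on plate 1 (0.0850 against 0.0706%), on plate 2 (0.213 against 0.186%) and in the lu/lu cells of plate 4 (0.210 against 0.144%), and lower on plate 4 +/+ (0.148 against 0.184%) and plate 3 (0.579 against 1.13%). In the first the largest gap was on plate 3, and the median per cell was 4.5 against 8 UMIs there and equal in the 2 classes in the other 4 libraries. Of the 10 members, 6 passed the filter on low counts and 4 were called lower in Gfra1-positive cells, where 4.73% of the 5033 genes tested were called and 3.42% were called lower. These 4 were Gm10800 (log2 fold change -0.49, SE 0.09, edgeR adjusted p = 1.37e-05), Gm26870 (-0.66, SE 0.14, edgeR adjusted p = 0.000341), Gm10801 (-0.47, SE 0.12, edgeR adjusted p = 0.00312) and Gm10717 (-0.71, SE 0.20, edgeR adjusted p = 0.00955). Gm21738 (-0.47, edgeR adjusted p = 0.108) and Gm10722 (-0.55, edgeR adjusted p = 0.330) were not called. With the second thinning 3 of 5 members tested were called lower, where 132 of 4859 genes were, and Gm10800 was not called (-0.20, edgeR adjusted p = 0.505). Without plate 3, 0 of 6 members were called, and the log2 fold changes of these 4 were -0.35 (Gm10800, edgeR adjusted p = 0.0549), -0.46 (Gm26870), -0.24 (Gm10801) and -0.34 (Gm10717). At 1000 UMIs per cell the Gfra1-negative cells of plate 2 include the cell with 87.9%. At this depth Gm10800 (-0.78, edgeR adjusted p = 0.633) and Gm10801 (-1.07, edgeR adjusted p = 0.432) were not called, and Gm21738 was (-1.05, edgeR adjusted p = 0.00715). None was called by DESeq2, where Gm10800 had -0.45 and Gm26870 -0.60, or without the block, where they had -0.60 and -0.88. In cells not thinned none was called either, where Gm10800 had -0.99, Gm26870 had -1.41, and 21 of 10604 genes were called. The Gfra1-positive cells not thinned were deeper, with a median of 9461 against 4604 UMIs on plate 3, so that the share, which falls with depth, gives no separate measure. Members share sequence, so these calls are not independent of each other.

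Cells with more UMIs of 20 G2M genes than the median of their library did not move one way. In the +/+ libraries the family held 0.0496 against 0.0964% of UMIs on plate 1, 0.182 against 0.199% on plate 2 and 0.138 against 0.200% on plate 4. In lu/lu cells it held 1.34 against 0.825% on plate 3 and 0.114 against 0.194% on plate 4. At 2000 UMIs per cell plate 3 was thus the only library in which the G2M-high cells were higher, and 1 of its G2M-high cells held 16.9% of the family UMIs of that class. Of 6 members tested, Gm21738 was called higher (log2 fold change 0.51, SE 0.15, edgeR adjusted p = 0.0223), with 5.38% of 5525 genes called and 2.79% called higher. This call was lost with the second thinning (0.13, edgeR adjusted p = 0.728), at 1000 UMIs per cell (-0.06, edgeR adjusted p = 0.992), without the block (0.68, edgeR adjusted p = 0.986), without the filter (0.53, edgeR adjusted p = 0.0511) and by DESeq2 (0.03, DESeq2 adjusted p = 1.00). At 1000 UMIs per cell the G2M-high cells were higher on plate 3 and, by log2 ratios of 0.08 and 0.03, also in the +/+ and lu/lu cells of plate 4. In cells not thinned they were lower in all 5 libraries, with a log2 ratio of -0.65 on plate 3, and 8 of 10 members were called lower, where 253 of 9837 genes were. The G2M-high cells were deeper there, with a median of 9755 against 4201 UMIs on plate 3, and a share that falls with depth was part of the selection, so that this direction is no separate measure. Without plate 3 the direction turned, and 3 of 5 members were called lower, where 95 of 5443 genes were. The median log2 fold change of the 6 members was 0.01, and that of all genes -0.01.

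Transcripts of 10 spermatid genes, such as the protamine gene Prm1, occurred in some of the sorted cells. Cells with at least 5 of these UMIs were compared with cells with at most 1. The direction depended on the thinning. With the first thinning the family held 0.0929 against 0.0774% on plate 1, 0.213 against 0.190% on plate 2 and 0.220 against 0.153% on plate 4 in Plzf +/+ cells, and 0.583 against 1.06% on plate 3 in Plzf lu/lu cells. With the second it held 0.0750 against 0.0771%, 0.200 against 0.190% and 0.0786 against 0.163% in the +/+ libraries, and 0.757 against 1.09% on plate 3. At 1000 UMIs per cell, and in cells not thinned, the marked cells were lower in all 3 +/+ libraries and on plate 3. At both settings the unmarked cells of plate 2 include the cell with 87.9%. The lu/lu library of plate 4 had enough marked cells, 6, only in cells not thinned, and they were lower there too (0.0728 against 0.255%). The marked cells not thinned were deeper in every library, with medians of 7901.5 to 10001.5 against 2819.5 to 5603 UMIs, and a lower share in deeper cells is part of the selection. With the first thinning, on plate 4 +/+ 1 cell held 63.8% of the family UMIs of the spermatid-marked class. The lu/lu library of plate 4 had 4 marked cells in it and was left out. None of 6 members was called, with 18.9% of 5282 genes called by edgeR. At an unadjusted p under 0.05 there were 0 members, and by DESeq2 0. The log2 fold changes of the 6 members were -0.13 to 0.33. Without plate 3, 2 of 6 members were called higher, where 747 of 5389 genes were. At 1000 UMIs per cell 4 of 6 members were called lower, where 123 of 3124 genes were, with Gm10800 at -1.73 (edgeR adjusted p = 1.33e-07). In cells not thinned 5 of 9 members were called lower, where 1503 of 9746 genes were.

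**Figure D4:**
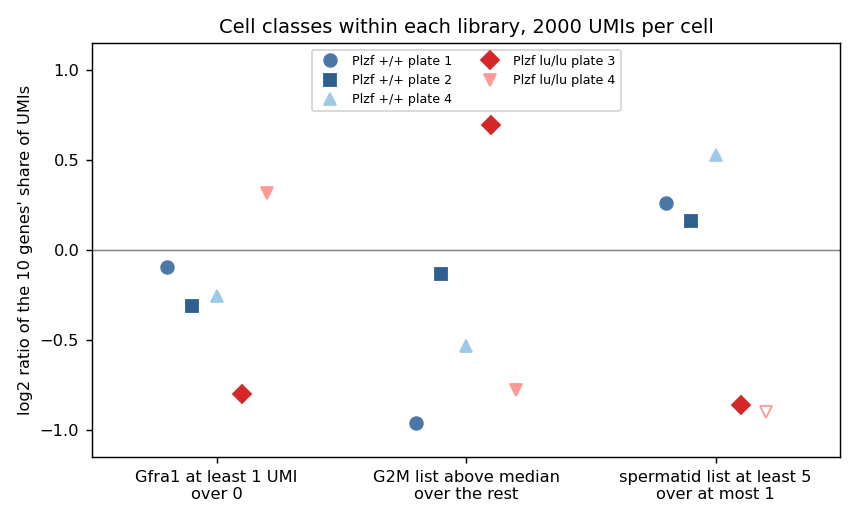
Log2 ratio of the share of UMIs held by the 10 genes between 2 classes of cells within each library, at 2000 UMIs per cell with the first random thinning; each point is a library, and the open triangle is a library with 4 marked cells that was not tested. Plate 3 lies at -0.80, 0.69 and -0.86 for the Gfra1, G2M and spermatid classes, on the other side of 0 from the +/+ libraries in the last 2; with the second thinning the spermatid ratio of plate 1 was -0.04 and that of plate 4 +/+ -1.06.

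Of 32 genes with a role in pericentromeric heterochromatin, none was called between genotypes. The list held histone methyltransferases, their readers, DNA methylation genes, chromatin remodellers and histone chaperones, and centromere proteins, and 30 of the 32 passed the filter. Among all 13728 genes 0.816% were called by edgeR. At an unadjusted p under 0.05 there were 5 genes of the list, where 14.2% of all genes had such a p, and DESeq2 called 0. The lowest p were those of Ehmt1, an H3K9 methyltransferase gene (log2 fold change -0.70, SE 0.21, edgeR adjusted p = 0.181), Atrx, a remodeller of heterochromatin (-0.64, SE 0.20, edgeR adjusted p = 0.201), and Mbd2, a reader of methylated DNA (-0.80, SE 0.27, edgeR adjusted p = 0.226). Ehmt1 had 85.5, 72.5 and 79.3 CPM in the +/+ libraries and 50.2 and 39.3 CPM in the lu/lu libraries. Atrx had 336, 241 and 275 CPM against 158 and 204 CPM, and Mbd2 52.1, 44.7 and 45.4 CPM against 23.0 and 35.4 CPM. Of the 30 genes tested, 11 had both lu/lu libraries below all 3 +/+ libraries, these 3 among them, where 18.5% of all genes lay so, and 2 had both above, where 16% did. The 2 genes above, named after their values were seen, were Chaf1b, a chromatin assembly factor gene (26.8, 28.2 and 30.9 CPM against 51.7 and 35.4 CPM, edgeR adjusted p = 0.232), and Smchd1 (355, 287 and 321 CPM against 367 and 499 CPM, edgeR adjusted p = 0.286). Atrx was called lower without plate 1 (edgeR adjusted p = 0.0471) and without the filter on low counts (edgeR adjusted p = 0.0152). The median log2 fold change of the list was -0.11, and that of all genes 0.00. As a sum the list held 3908, 3281 and 3252 CPM in the +/+ libraries and 3251 and 3218 CPM in the lu/lu libraries, so that plate 3 did not stand apart.

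Some genes of the list were called between classes of cells. In the G2M-high cells 4 of 25 genes tested were called higher, where 2.79% of all genes were, and 0 lower: Hells, a remodeller needed for DNA methylation of repeats (log2 fold change 0.73, SE 0.12, edgeR adjusted p = 3.85e-08), Cenpa, the centromeric histone H3 gene (0.84, SE 0.17, edgeR adjusted p = 4.38e-05), Aurkb, the mitotic kinase gene (1.41, SE 0.32, edgeR adjusted p = 0.00043), and Incenp, its partner (0.97, SE 0.25, edgeR adjusted p = 0.00387). None of the 4 is on the G2M list that defined the class, but Aurkb and its partner Incenp act in mitosis, so their calls are not independent of it. Aurkb was called in all 8 alternatives that tested it. Cenpa was not called without the block (edgeR adjusted p = 0.0633), nor Hells at 1000 UMIs per cell (edgeR adjusted p = 0.122). Incenp was not called in 4 of 11 alternatives, namely at 1000 UMIs per cell, without the block, by DESeq2 and without plate 4 +/+, and its log2 fold change was 0.13 to 1.20 over all 11. In the spermatid-marked cells Hells (-0.92, SE 0.25, edgeR adjusted p = 0.00231) and Suv39h1 (-0.94, SE 0.35, edgeR adjusted p = 0.0429) were called lower, 2 of 23 genes tested, where 3.62% of all genes were called lower. Both calls were lost with the second thinning (edgeR adjusted p = 0.0625 and 0.322) and at 1000 UMIs per cell, and DESeq2 called 0. Suv39h1 was also not called without the block, without plate 2 or without plate 3. Over 10 alternatives the log2 fold change was -1.34 to -0.60 for Hells and -1.50 to -0.50 for Suv39h1. With the second thinning 2 other genes of the list were called lower and 1 higher, of 22 tested. Of all 5206 genes 232 were called lower and 828 higher there. In cells not thinned, where the marked cells were deeper, 10 of 29 were called lower and 3 higher, with 1503 and 2571 of 9746 genes. Without the filter 8 of 32 were called lower, and without plate 1 5 of 25. In Gfra1-positive cells edgeR and DESeq2 called 0 of 21, with 5 at an unadjusted p under 0.05, where 14.2% of all genes had one, and the lowest p were those of Atrx (log2 fold change 0.34, SE 0.14, edgeR adjusted p = 0.167), Suv39h1 (0.39, SE 0.17, edgeR adjusted p = 0.243) and Lbr, a lamin B receptor gene (0.38, SE 0.17, edgeR adjusted p = 0.258).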

How the data were processed

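Cells of 4 plates were sorted and sequenced from the 3′ end with well barcodes and UMIs. The authors deposited raw UMI counts per gene symbol and cell, 1 table per genotype, without normalization. The submitters' processing notes name bcl2fastq 2.18.0.12, Picard 2.9.3, STAR 2.5.4a and the build GRCm38. How reads that match several genes were counted is not given in the sources used here, and this could move counts between members. The plate came from the cell names and the genotype of a plate 4 cell from its table. All cells were used, with no doublet removal.

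The 10 genes and the lists were chosen with earlier results of these data known. All members are named, as are the heterochromatin genes called in a comparison (at most 6 by adjusted p, otherwise the 3 of lowest p), the 10 genes most like the family, repeat-linked rows and Zbtb16. Of the repeat-linked rows, Gm10721 had 1 UMI in each of 2 libraries, and Gm10716, Gm42418 and Rn45s were not analysed here.

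UMIs were summed per library, or per class and library, and tested with edgeR 4.0.16 (R 4.3.3): filterByExpr, TMM, robust glmQLFit and glmQLFTest, Benjamini-Hochberg over all genes tested, called at an adjusted p under 0.05. Cells were thinned without replacement to 2000 UMIs (seed 1, and seed 2 for the second thinning), and a library needed at least 5 cells in each class. DESeq2 1.42.0 was an alternative. The procedure was tested on simulated data. Depth was 612 to 95069 UMIs per cell. Intervals and limits from 0 UMIs cover counting error only. Transcript sequences were GENCODE M1 on NCBIM37. RefSeq gene and promoter tables matched 0 members.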

Additional observations from a re-analysis of the deposited data

Results flagged for a closer look

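In cells that carried transcripts of spermatid genes, the log2 ratio of the share of the 10 genes to that in other cells was 0.26, 0.16 and 0.53 in plates 1, 2 and 4 of the +/+ cells, and -0.86 on plate 3, whose cells are lu/lu. It was noticed because, with this random thinning to 2000 UMIs per cell, all 3 libraries of 1 genotype moved one way and the only library of the other that could be used moved the opposite way. The pattern did not recur with the other thinning, which gave -0.04, 0.07 and -1.06 in the +/+ libraries and -0.53 on plate 3. At 1000 UMIs per cell the ratios were -1.995, -1.95 and -1.56 and -1.38 on plate 3, and in cells not thinned -0.77, -1.96 and -0.81 and -0.23, with -1.81 in the lu/lu cells of plate 4, of which 6 were marked. At both settings the unmarked cells of plate 2 include the cell with 87.9%, which was left out at 2000 UMIs per cell. The marked cells not thinned were deeper in every library, and the share falls with depth. The difference between genotypes was not tested, and with 1 lu/lu library that could be used at 2000 UMIs per cell the genotype and plate 3 cannot be told apart. The median per cell was higher in the marked cells of plate 3, with 9.5 against 7 UMIs at 2000 UMIs per cell, which is the opposite direction to the sum, and 1 of the other cells of plate 3 held 597 UMIs of the family.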

How the results depend on the processing

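The share of the family was 0.264 percentage points higher in Plzf lu/lu than in Plzf +/+. It was 0.501 on plates 1 to 3 alone and -0.373 in wells A1 to C14 alone. On plate 4 alone it was 0.0256, with the 5 cells in wells labelled for Plzf lu/lu counted as +/+. Leaving out each library gave 0.0277 to 0.500. By the median over cells, chosen after seeing the data, plate 4 alone gave 0.0393. In cells thinned to 2000 UMIs the difference was 0.458, with -0.00892 on plate 4, and by the median over cells 0.172. The pooled SD of the libraries was 0.202, set mainly by the gap between the lu/lu libraries. The difference moved by more than this SD on plate 4 alone, by sum or median, and on plates 1 to 3 alone. It also moved by more when either lu/lu library was left out, and it turned negative in wells A1 to C14 alone. Thinning, the median over cells and the other alternatives in percent moved it by less. These include those without the plate 2 cell of highest share and without Gm26870, which were also added after seeing the data. The median UMIs of the family per cell, likewise added, were 8.33 higher in lu/lu. The cause of these changes was not tested.

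The count of genes called between genotypes (112) was 583 without the filter and 1 to 1387 without single libraries: 1387 without plate 1, 1 without plate 2, plate 4 +/+ or plate 3, and 6 without plate 4 lu/lu. For the Gfra1, G2M and spermatid classes the counts were 238, 297 and 996. They were 21, 1010 and 4074 in cells not thinned and 20, 116 and 526 at 1000 UMIs per cell. Without the library block the first 2 were 7 and 50, and by DESeq2 61 and 107, and without the filter the last was 2056. Leaving out each library gave 135 to 250, 190 to 332 and 811 to 1191.

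The members called were 4, 1 and 0 in these classes. They were 0, 8 and 5 in cells not thinned, where 21 of 10604, 1010 of 9837 and 4074 of 9746 genes were called. There all 8 G2M calls were lower and the classes differed in depth. At 1000 UMIs per cell 3, 0 and 4 members were called, where 20 of 1461, 116 of 3518 and 526 of 3124 genes were. Without the block and by DESeq2 the first 2 member counts were 0 and 0, and the G2M count was also 0 with another seed and without the filter. Leaving out each library gave 0 to 4, 1 to 3 and 0 to 2, with plate 3 as the library that gave 0 in the first and 3 and 2 in the others. No paired analysis of genotypes was possible because only plate 4 held both, while the class comparisons had the library as a block.

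At 38 cells, the lu/lu library of plate 4 limits what can be said within a plate.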
